A study of Homo sapiens with 4 samples.

Results

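Collagens, laminins and integrins were followed in HepG2 and PLC/PRF/5, 2 lines of human liver cancer cells, after 24 h with PF-429242 and without it. Members were the protein-coding genes of these 3 families, recognised by symbol (COL with an A chain number, LAMA, LAMB or LAMC, and ITGA or ITGB), that reached at least 0.5 FPKM in at least 1 library. FPKM is the number of sequenced fragments of a gene divided by its length and scaled to the depth of the library, so levels of different genes can be set side by side. The rule kept 36 of the 32479 genes in the table, namely 16 collagens, 6 laminins and 14 integrins. It took the level in any library, treated or control, and did not use the ratio between them. Among the 77 genes of the families in the table, 41 stayed under the minimum. The member nearest to it was ITGA10, with a highest level of 0.708 FPKM, and the genes left out that came nearest were COL3A1 at 0.206 FPKM and COL1A1 at 0.190 FPKM.

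The 4 groups were HepG2 cells given 20 uM PF-429242 for 24 h, PLC/PRF/5 cells given the same dose for the same time, and the untreated 24 h control of each line, all labelled wild type. Each group was 1 sample and 1 library, so no difference below has a replicate check, and each compares a pair of libraries. HepG2 and PLC/PRF/5 are established lines grown from human liver tumours, and PLC/PRF/5 carries integrated hepatitis B virus sequence. The compound PF-429242 blocks the site-1 protease encoded by MBTPS1, a Golgi enzyme that cuts the membrane-bound transcription factors SREBP and ATF6 as a step in their release. The design set treated against untreated cells within each line.

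Collagens are secreted proteins in which alpha chains wind into a triple helix. Fibrillar collagens build fibres, type IV collagens form the sheet of basement membranes, and others link or decorate these structures. Laminins are cross-shaped assemblies of an alpha, a beta and a gamma chain and are the other main component of basement membranes. Integrins are surface receptors made of an alpha and a beta subunit that bind these ligands outside the cell and the actin cytoskeleton inside it. In liver the fibrillar collagens come mainly from stellate cells and fibroblasts, while hepatocytes contact little organised basement membrane.

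The libraries held 16722204 to 21387301 recovered fragments. Mitochondrial genes took 27.6% of fragments in treated HepG2 against 16.6% in the HepG2 control, and 28.2% in treated PLC/PRF/5 against 21.3% in its control. Treated PLC/PRF/5 stood apart in mitochondrial ribosomal RNA, with 0.447% of its fragments against 2.59% to 4.90% in the other 3 libraries. What these shares contribute to the differences below was not tested. SREBF2, which encodes an SREBP, had 3.32 FPKM in treated HepG2 against 20.7 FPKM in its control, and 6.34 FPKM in treated PLC/PRF/5 against 17.4 FPKM in its control. All 10 listed hepatocyte genes reached 1 FPKM, with ALB, serum albumin, at 2421, 2586, 1148 and 624 FPKM in treated HepG2, control HepG2, treated PLC/PRF/5 and control PLC/PRF/5. Of 9 listed fibroblast and stellate cell genes, 8 were in the table, and ACTA2, smooth muscle actin, was the only one to reach 1 FPKM. The summed level of these genes was 4.60 FPKM in treated HepG2 and 6.46 FPKM in its control, and 2.61 FPKM in treated PLC/PRF/5 and 1.84 FPKM in its control, while DCN, LUM and PDGFRA were at 0 in both HepG2 libraries. In such bulk samples, fewer cells of a kind and less RNA per cell cannot be told apart.

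At the level of the families, each library had a few dominant genes. The 16 collagens summed to 95.6 FPKM in treated HepG2 and 128 FPKM in its control, and to 46.0 FPKM in treated PLC/PRF/5 and 41.7 FPKM in its control. For the 6 laminins the sums were 111 FPKM in treated HepG2 and 149 FPKM in its control, and 117 FPKM in treated PLC/PRF/5 and 135 FPKM in its control. Integrins summed to 153 FPKM in treated HepG2 and 176 FPKM in its control, and to 248 FPKM in treated PLC/PRF/5 and 316 FPKM in its control. On the deposited scale, the collagen sum was thus the only one of the 3 that was higher in a treated library than in its control, and only in PLC/PRF/5. This depends on the scaling. Scaling to equal FPKM sums (TPM scale, factors 0.833 for treated PLC/PRF/5 and 1.05 for its control) reverses it. Scaling to a common median ratio (1.10 for treated HepG2 and 0.948 for its control) puts the HepG2 integrin sum above its control too. Levels were led by COL27A1 among the collagens of HepG2, COL18A1 among those of PLC/PRF/5, LAMC1 among the laminins of all 4 libraries and ITGB1 among the integrins of all 4. ITGB1 alone made 37.0% of the integrin sum in treated HepG2 and 37.3% in its control, and 54.6% in treated PLC/PRF/5 and 57.6% in its control. Of the 36 members, 32 reached 1 FPKM in at least 1 library and 17 did so in all 4.

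**Figure D1:**
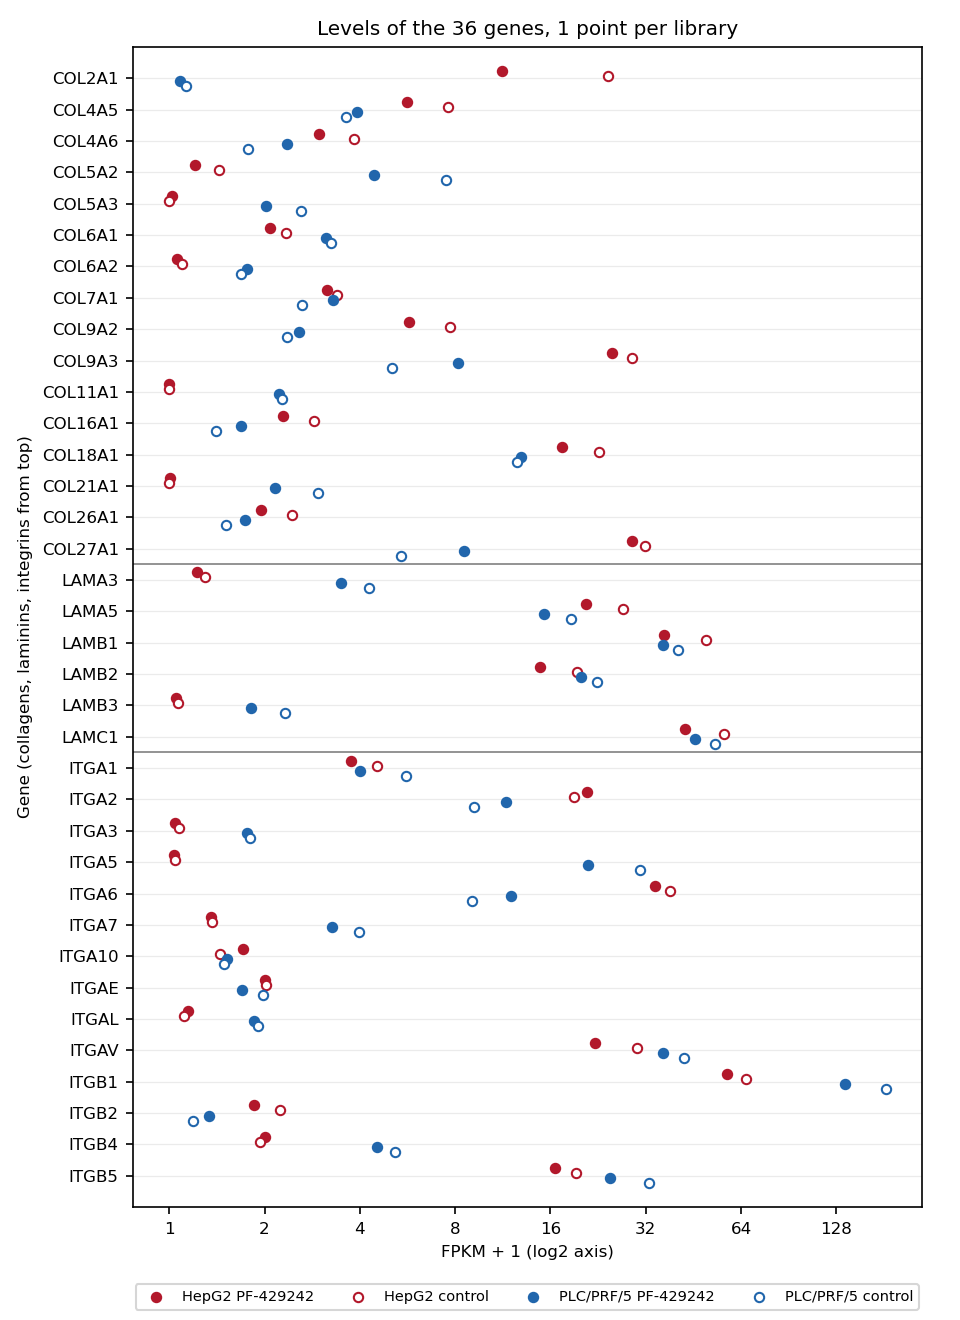
Level of each member in the 4 libraries, as FPKM + 1 on a log2 axis, with 1 point per library; red marks HepG2, blue PLC/PRF/5, filled points PF-429242 and open points controls. COL2A1 and ITGA5 sit at opposite ends in the 2 lines, and the 4 points of LAMB1, LAMB2 and LAMC1 lie close together.

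The first comparison set the untreated lines against each other and asked which matrix genes and receptors each line carried. The 2 lines shared the laminin chains of most basement membranes but differed widely in collagens and integrin alpha subunits. HepG2 held more COL2A1, COL9A2, COL9A3, COL27A1 and ITGA6. PLC/PRF/5 held more COL5A2, COL5A3, COL11A1, COL21A1, laminin LAMA3 and LAMB3, and integrin ITGA5. Counted on the log2(FPKM + 1) scale among genes that reached 1 FPKM in either control, 9 of 32 members were at least 2-fold higher in control HepG2 than in control PLC/PRF/5, where the background over 10987 nuclear protein-coding genes was 8.43%. A further 10 of 32 were at least 2-fold lower in control HepG2, against a background of 11.7%. At 1.5-fold the counts were 12 higher and 11 lower, with backgrounds of 17.3% and 22.5%. Of the 9 higher members, 7 were collagens and 2 integrins, while the 10 lower members were 4 collagens, 2 laminins and 4 integrins. Most of the lower ones were low in HepG2 in absolute terms: 9 of the 10 were under 1 FPKM in control HepG2, and 3 of the 9 higher ones were under 1 FPKM in control PLC/PRF/5.

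COL2A1 (chromosome 12, 47972965 to 48004554 on GRCh38), the single chain of the main cartilage fibril, had 23.3 FPKM in control HepG2 and 0.126 FPKM in control PLC/PRF/5, a ratio of 185 with a 95% counting interval of 117 to 312. These intervals come from the recovered fragments, cover counting error only and carry no replicate spread. COL9A2 and COL9A3 encode chains of type IX collagen, which coats cartilage fibrils. COL9A3 had 28.0 FPKM in control HepG2 against 4.06 FPKM in control PLC/PRF/5, a ratio of 6.90 (counting interval 6.21 to 7.67). COL9A2 had 6.70 against 1.35 FPKM in the same controls, a ratio of 4.95 (4.05 to 6.09). COL27A1 (chromosome 9, 114155560 to 114312511), a fibrillar collagen also found in cartilage, had 30.8 FPKM in control HepG2 and 4.39 FPKM in control PLC/PRF/5, a ratio of 7.03 (counting interval 6.63 to 7.46). COL9A1, the third chain of type IX collagen, was not a member. COL16A1, a collagen of fibril surfaces, had 1.86 FPKM in control HepG2 and 0.409 FPKM in control PLC/PRF/5, a ratio of 4.55 (3.54 to 5.89). The type IV chains COL4A5 and COL4A6 completed the 7 collagens at least 2-fold higher in control HepG2, with ratios of 2.52 (2.29 to 2.77) and 3.65 (3.03 to 4.42).

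In the opposite direction, COL5A2, which helps to nucleate collagen fibrils, had 0.433 FPKM in control HepG2 and 6.48 FPKM in control PLC/PRF/5, or 15.0-fold lower in control HepG2 (ratio 0.0668, counting interval 0.0497 to 0.0881). For 3 other collagens, control HepG2 held 0 fragments, and the bound is computed from 3 fragments in that library. The fibrillar COL11A1 had 0 FPKM in control HepG2 against 1.27 FPKM in control PLC/PRF/5, at least 64.4-fold lower in control HepG2. COL5A3, another type V chain, stood at 0 against 1.61 FPKM, at least 60.7-fold lower. COL21A1, a collagen that associates with fibrils, stood at 0 against 1.96 FPKM, at least 75.6-fold lower. The 2 lines thus listed different fibrillar collagens: COL2A1 and COL27A1 led in HepG2, and COL5A2 and COL27A1 in PLC/PRF/5.

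Among receptors, ITGA5 (chromosome 12, 54395261 to 54419460), the alpha subunit of the fibronectin receptor, showed the widest gap of the members on the log2(FPKM + 1) scale. It had 0.0333 FPKM in treated HepG2 and 0.0405 FPKM in its control, and 20.1 FPKM in treated PLC/PRF/5 and 29.7 FPKM in its control. Each HepG2 library held 5 fragments, and control HepG2 was 734-fold lower than control PLC/PRF/5 (ratio 0.00136, counting interval 0.000442 to 0.00318). ITGA6, which forms laminin receptors with ITGB1 or ITGB4, had 37.3 FPKM in control HepG2 against 8.06 FPKM in control PLC/PRF/5, a ratio of 4.63 (4.33 to 4.94). Its hemidesmosome partner ITGB4 ran the other way, with 0.929 FPKM in control HepG2 and 4.16 FPKM in control PLC/PRF/5, a ratio of 0.223 (0.180 to 0.275). The 2 subunits of this laminin receptor thus differed between the lines in opposite directions. ITGB1 (chromosome 10, 32900319 to 33005792), the beta subunit shared by most matrix integrins, had 65.4 FPKM in control HepG2 and 182 FPKM in control PLC/PRF/5, a ratio of 0.359 (counting interval 0.349 to 0.369). ITGA7, a laminin receptor of muscle, was 0.366 FPKM in control HepG2 against 2.96 FPKM in control PLC/PRF/5, a ratio of 0.123 (0.0865 to 0.172). ITGA2, the other integrin at least 2-fold higher in HepG2 and a collagen receptor, had 17.9 FPKM in control HepG2 and 8.17 FPKM in control PLC/PRF/5, a ratio of 2.20 (2.05 to 2.35). So ITGB1 exceeded every alpha subunit in each line, while the leading alpha subunit was ITGA6 in control HepG2 and ITGAV in control PLC/PRF/5.

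The laminins divided by assembly. LAMA5 assembles with LAMB1 or LAMB2 and with LAMC1 into laminins that are widespread in adult basement membranes, and the control ratios of HepG2 over PLC/PRF/5 for these 4 genes were 1.48, 1.23, 0.856 and 1.07. LAMA3 and LAMB3 belong to the laminin of epithelial anchoring sites. LAMA3 had 0.297 FPKM in control HepG2 against 3.27 FPKM in control PLC/PRF/5, a ratio of 0.0908 (0.0706 to 0.115). LAMB3 had 0.0643 against 1.33 FPKM, a ratio of 0.0484 (0.0155 to 0.116). Both were also low in treated HepG2, at 0.224 FPKM for LAMA3 and 0.0529 FPKM for LAMB3.

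**Figure D2:**
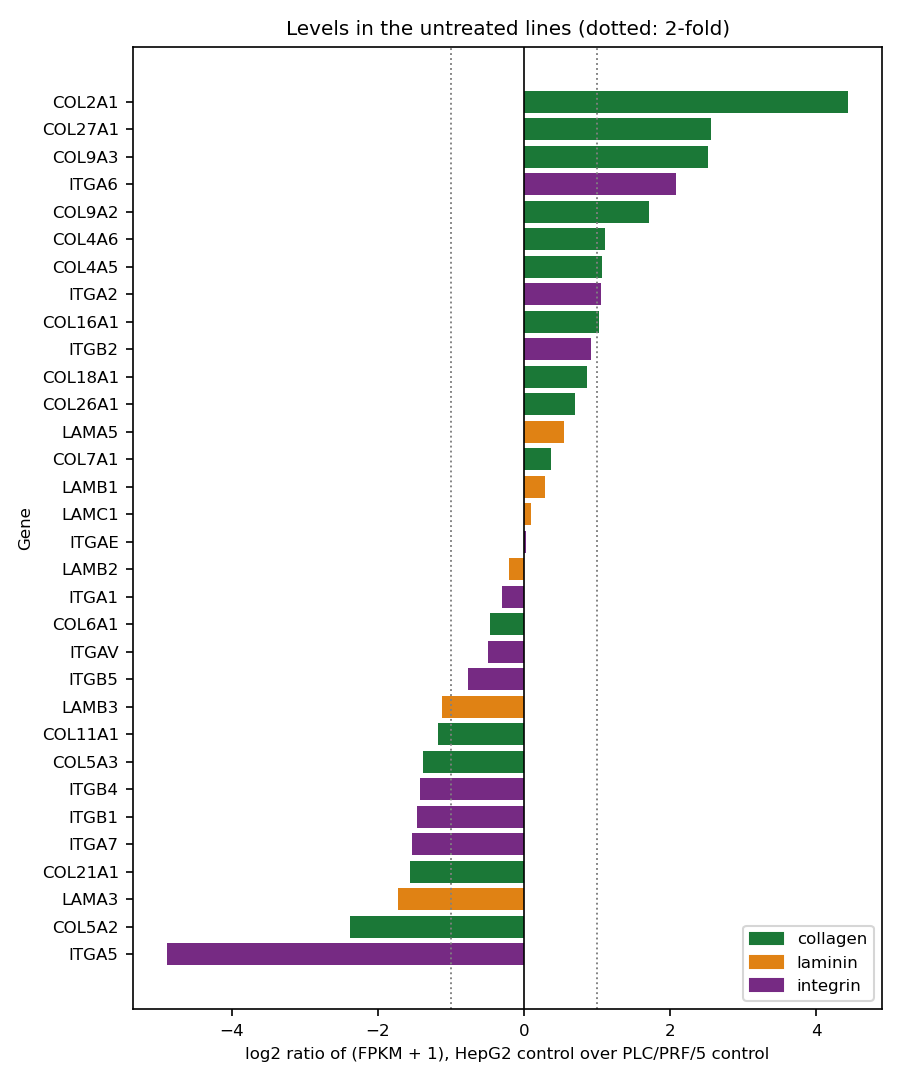
Log2 ratio of (FPKM + 1), control HepG2 over control PLC/PRF/5, as 1 bar for each of the 32 members with 1 FPKM or more in a control, coloured by family, with dotted lines at 2-fold. Bars for LAMA5, LAMB1, LAMB2 and LAMC1 are short, COL2A1 reaches 4.43 to the right and ITGA5 −4.88 to the left.

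Members of known pairs were not always seen together. The classical basement membrane collagen is built from COL4A1 and COL4A2, which lie head to head on chromosome 13 with 1421 bases between their annotated starts. Neither was a member: COL4A1 had 0, 2, 5 and 6 fragments and COL4A2 had 41, 28, 14 and 11 fragments in treated HepG2, control HepG2, treated PLC/PRF/5 and control PLC/PRF/5. The type IV chains among the members were COL4A5 and COL4A6, which lie head to head on chromosome X with 347 bases between starts. Type VI collagen, a beaded filament of connective tissue, showed COL6A1 at 1.08 FPKM in treated HepG2, 1.34 in its control, 2.14 in treated PLC/PRF/5 and 2.24 in its control. Its partner COL6A2, on the same strand of chromosome 21, had 0.0551, 0.101, 0.759 and 0.682 FPKM in the same libraries. The third chain, COL6A3, held 16 to 33 fragments per library and was under the minimum. The main fibrillar collagen of scar tissue was also nearly missing, with 2, 14, 20 and 40 fragments of COL1A1 in treated HepG2, control HepG2, treated PLC/PRF/5 and control PLC/PRF/5. COL1A2 was not analysed here.

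Most members were modestly lower in treated than in control HepG2. Of the 24 members with at least 1 FPKM in either HepG2 library, 22 were lower in treated than in control HepG2 and 2 were higher. On the deposited scale all 11 collagens, all 4 laminins and 7 of 9 integrins were lower. With median-of-ratios scaling, 9 of 11 collagens, all 4 laminins and 4 of 9 integrins were lower. A single member, COL2A1, was at least 2-fold lower and none was at least 2-fold higher. Over the 9979 nuclear protein-coding genes tested in HepG2, 0.651% were lower and 0.0701% higher at 2-fold, and 2.54% were lower and 0.281% higher at 1.5-fold. At 1.5-fold the member count was the same, 1 lower (4.17%) and 0 higher. The median log2 ratio of (FPKM + 1) was −0.30 over the members and −0.18 over all genes tested, and 17 of 24 members lay below that background. In HepG2 the counting interval of the ratio lay below 1 for 20 of the 36 members and above 1 for 2. The share of all genes with such intervals was not counted, so these counts are not read as a trait of the members. By family the median was −0.33 for collagens, −0.40 for laminins and −0.20 for integrins.

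COL2A1 had 10.2 FPKM in treated HepG2 (1385 fragments) and 23.3 FPKM in its control (2599 fragments). The treated level was 0.438 of the control level (counting interval 0.410 to 0.468), and the log2 ratio of (FPKM + 1) was −1.12. When the libraries were scaled to a common median ratio, this log2 ratio was −0.92 and no longer reached 2-fold. In PLC/PRF/5 the gene had 0.0795 FPKM in treated cells and 0.126 FPKM in the control, from 9 and 18 fragments, which is too little to give it a direction there. COL2A1 could therefore be given a direction in HepG2 only, and the lines could not be compared in their response for this gene.

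The other HepG2 collagens moved less. COL18A1, a basement membrane collagen whose end fragment is endostatin, had 16.4 FPKM in treated HepG2 and 21.8 FPKM in its control, a ratio of 0.751 (counting interval 0.714 to 0.791). Of its exon bases, 16.4% overlap exons on the opposite strand, and the strandedness of the libraries is not stated in the labels, so its fragments may include some of the neighbour. COL27A1, the most abundant HepG2 collagen, had 27.9 FPKM in treated HepG2 and 30.8 FPKM in its control, a ratio of 0.904. Scaling to the median ratio turned its small log2 difference from below to above 0. COL16A1 had 1.29 against 1.86 FPKM, and COL26A1 had 0.951 against 1.45 FPKM, in treated HepG2 against its control. COL9A2 had 4.71 against 6.70 FPKM, COL9A3 had 24.1 against 28.0 FPKM and COL7A1 had 2.16 against 2.39 FPKM. All were lower in treated HepG2, and the counting interval for COL7A1, 0.794 to 1.03, includes 1.

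The 4 laminins measured in HepG2 were lower by nearly the same proportion. LAMC1 (chromosome 1, 183023460 to 183145592), the gamma chain shared by most laminins, had 41.5 FPKM in treated HepG2 and 55.5 FPKM in its control, a ratio of 0.747 (counting interval 0.723 to 0.771). LAMB1 had 35.5 against 48.5 FPKM in treated against control HepG2, a ratio of 0.733 (counting interval 0.708 to 0.760). LAMB2, the alternative beta chain, had 13.8 against 18.4 FPKM, a ratio of 0.752. LAMA5 had 19.7 against 26.0 FPKM, a ratio of 0.758. The alpha, beta and gamma chains of LAMA5 laminins were thus each at about the same share of their control level, and none reached 1.5-fold.

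HepG2 integrins were more mixed. ITGAV, the alpha subunit of the vitronectin receptors, had 21.1 FPKM in treated HepG2 and 28.9 FPKM in its control, a ratio of 0.729 (counting interval 0.696 to 0.763). Its partner ITGB5 had 15.5 against 18.3 FPKM, and ITGB1 had 56.7 against 65.4 FPKM. ITGA6 was 33.3 FPKM in treated HepG2 against 37.3 FPKM in its control, and the collagen receptor ITGA1 was 2.75 against 3.53 FPKM. The exceptions were ITGA2 and ITGB4. ITGA2 had 19.9 FPKM in treated HepG2 and 17.9 FPKM in its control, a ratio of 1.11 (counting interval 1.05 to 1.17). ITGB4 had 1.00 against 0.929 FPKM, and its counting interval of 0.832 to 1.41 includes 1. ITGA1 and ITGA2, both collagen receptors with ITGB1, thus lay on opposite sides of their controls in HepG2. On the median-of-ratios scale ITGB1, ITGA6, ITGAE, COL7A1 and COL27A1 turned to above 0 in HepG2, so no direction relative to the bulk of genes is given for them. The TPM scale moved the median over all genes tested the other way, to −0.46 in HepG2 and −0.40 in PLC/PRF/5.

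In PLC/PRF/5 the families differed in how many members lay above their control. On the deposited scale, 7 of 12 collagens were higher, whereas every laminin and most integrins were lower in treated than in control PLC/PRF/5. The collagen tally depends on the scaling: 9 of 12 were above 0 with median-of-ratios scaling and 4 of 12 on the TPM scale. Of 27 members with at least 1 FPKM in either PLC/PRF/5 library, 9 were higher and 18 lower, and none differed by 2-fold. Over the 10598 nuclear protein-coding genes tested, 0.113% were higher and 0.349% lower at 2-fold, and 1.76% were higher and 2.39% lower at 1.5-fold. At 1.5-fold 2 members (7.41%), COL9A3 and COL27A1, were higher and 1 (3.7%), COL5A2, was lower. The counting interval lay below 1 for 17 of the 36 members and above 1 for 8, and the share of all genes with such intervals was not counted. The median log2 ratio of (FPKM + 1) was −0.19 over the members and −0.13 over all genes tested. The collagen median was 0.08 (−0.17 on the TPM scale), all 6 laminins were below 0, with a median of −0.25, and 7 of 9 integrins were below 0, with a median of −0.28. The 10 hepatocyte genes ran in the same directions as the collagens: all 10 were below 0 in HepG2, with a median of −0.26, and 7 of 10 were above 0 in PLC/PRF/5, with a median of 0.22. Their part in the collagen values was not tested.

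**Figure D3:**
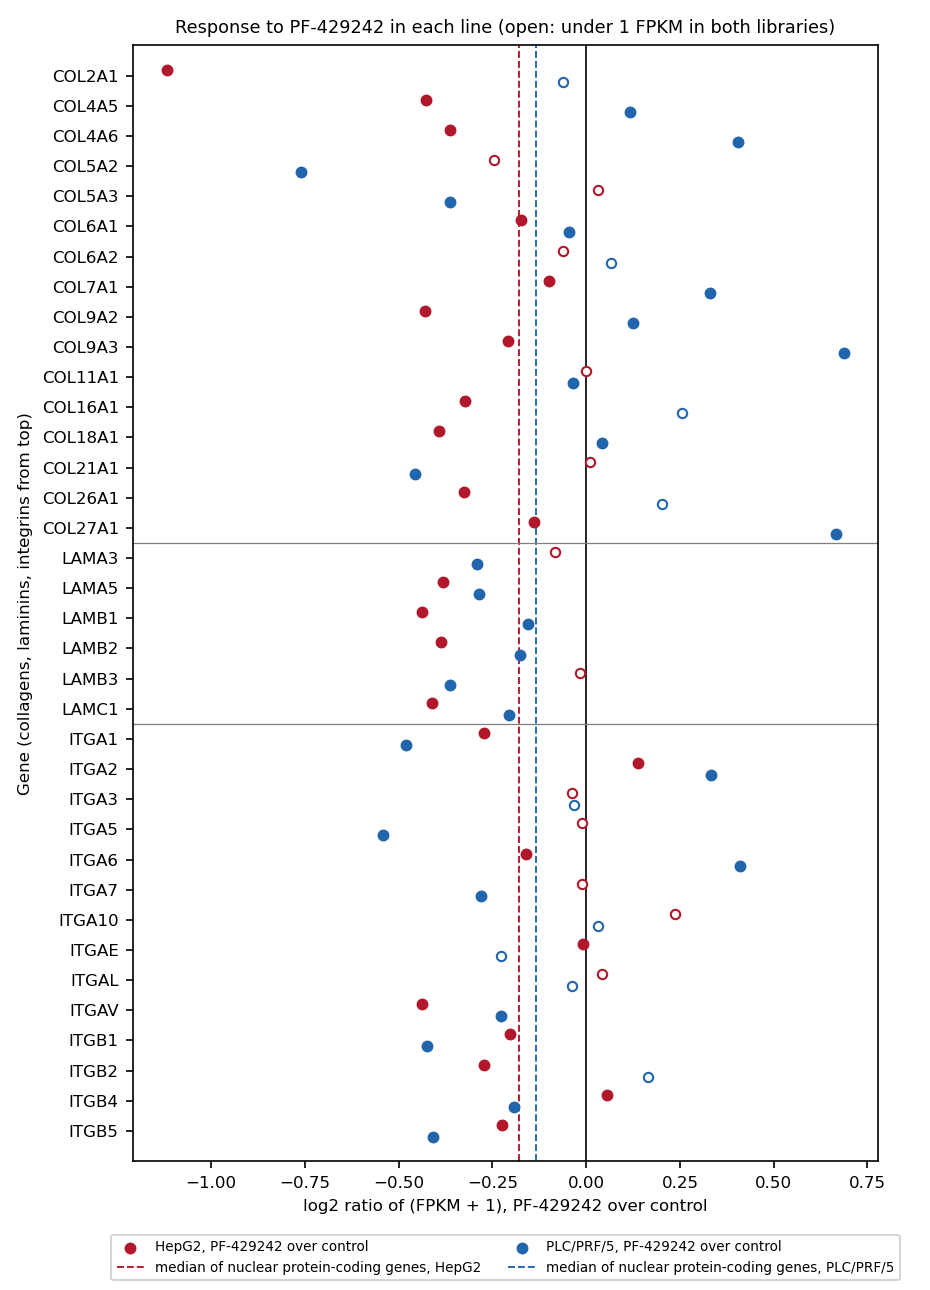
Log2 ratio of (FPKM + 1), PF-429242 over control, for each of the 36 members in HepG2 (red) and PLC/PRF/5 (blue), open where both libraries were under 1 FPKM, with dashed lines at the median over all nuclear protein-coding genes tested. COL2A1 at −1.12 in HepG2 is the only filled point past 2-fold, and COL9A3, COL27A1 and COL4A6 lie left of 0 in HepG2 and right of 0 in PLC/PRF/5.

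COL9A3 had 7.14 FPKM in treated PLC/PRF/5 (587 fragments) and 4.06 FPKM in its control (420 fragments), a ratio of 1.76 (counting interval 1.55 to 2.00). COL27A1 had 7.54 FPKM in treated PLC/PRF/5 and 4.39 FPKM in its control, a ratio of 1.72 (counting interval 1.60 to 1.85). Control HepG2 carried both at much higher levels, and their treated PLC/PRF/5 levels stayed well under those of either HepG2 library. COL9A2, a partner of COL9A3 in type IX collagen, was 1.56 FPKM in treated PLC/PRF/5 against 1.35 FPKM in its control, a ratio of 1.16 whose counting interval of 0.887 to 1.51 includes 1. COL7A1, which forms the anchoring fibrils under epithelia, had 2.30 against 1.63 FPKM, a ratio of 1.42 (counting interval 1.23 to 1.63). COL18A1, the leading PLC/PRF/5 collagen, had 11.9 against 11.6 FPKM, with an interval of the ratio from 0.967 to 1.10. Below 1 FPKM in both PLC/PRF/5 libraries, and so not counted, COL16A1 had 0.681 against 0.409 FPKM (107 and 81 fragments) and COL26A1 had 0.741 against 0.513 FPKM (39 and 34 fragments).

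The collagens that PLC/PRF/5 carried and HepG2 nearly lacked lay on the other side. COL5A2 had 3.42 FPKM in treated PLC/PRF/5 (425 fragments) and 6.48 FPKM in its control (1015 fragments), a ratio of 0.527 (counting interval 0.470 to 0.591). COL21A1 had 1.16 against 1.96 FPKM, a ratio of 0.591, and COL5A3 had 1.02 against 1.61 FPKM, a ratio of 0.638. The fourth such gene, COL11A1, was 1.22 FPKM in treated PLC/PRF/5 and 1.27 FPKM in its control, with an interval of the ratio from 0.789 to 1.16 that includes 1. Both type V chains in the list were thus lower in treated than in control PLC/PRF/5. In HepG2, COL5A2 was 0.208 FPKM in treated cells and 0.433 FPKM in the control, from 31 and 53 fragments, under the 1 FPKM needed to be counted. Treated HepG2 held 0 fragments of COL11A1, 1 of COL21A1 and 3 of COL5A3.

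All laminins of PLC/PRF/5 were lower after treatment, by less than in HepG2 for the abundant chains. LAMC1 had 44.9 FPKM in treated PLC/PRF/5 and 51.9 FPKM in its control, a ratio of 0.864 (counting interval 0.837 to 0.892). LAMB1 had 35.3 against 39.4 FPKM, LAMB2 had 18.9 against 21.5 FPKM and LAMA5 had 14.2 against 17.6 FPKM, with ratios of 0.896, 0.880 and 0.810. The anchoring laminin chain LAMA3 had 2.49 FPKM in treated PLC/PRF/5 and 3.27 FPKM in its control, a ratio of 0.761, and LAMB3 had 0.811 against 1.33 FPKM, a ratio of 0.611 (counting interval 0.446 to 0.829). LAMA3 and LAMB3 therefore showed the lowest ratios of the 6. LAMB1 was above 0 on the median-of-ratios scale in PLC/PRF/5.

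Among PLC/PRF/5 integrins, the fibronectin receptor subunits were both lower after treatment. ITGA5 had 20.1 FPKM in treated PLC/PRF/5 and 29.7 FPKM in its control, a ratio of 0.677 (counting interval 0.644 to 0.710). ITGB1 had 135 FPKM in treated PLC/PRF/5 and 182 FPKM in its control, a ratio of 0.743 (counting interval 0.728 to 0.759). ITGB5 and its partner ITGAV were 23.7 against 31.8 FPKM and 35.2 against 41.3 FPKM in treated against control PLC/PRF/5. Alpha subunits that share ITGB1 did not run in parallel. ITGA1 had 3.02 FPKM in treated PLC/PRF/5 and 4.61 FPKM in its control, a ratio of 0.656, whereas ITGA2 had 10.5 against 8.17 FPKM, a ratio of 1.29 (counting interval 1.20 to 1.39). ITGA6 had 11.0 FPKM in treated PLC/PRF/5 and 8.06 FPKM in its control, a ratio of 1.37 (counting interval 1.26 to 1.48), while its partner ITGB4 had 3.52 against 4.16 FPKM. ITGA7 had 2.26 against 2.96 FPKM in treated against control PLC/PRF/5, and 0.355 FPKM in treated HepG2 against 0.366 FPKM in its control. ITGA2 and ITGA6 were the only 2 of 9 PLC/PRF/5 integrins above 0, and the other 7 were below it.

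The remaining integrins were low. ITGB2, the leukocyte beta subunit, had 0.858 FPKM in treated HepG2, 1.24 in its control, 0.334 in treated PLC/PRF/5 and 0.191 in its control. Its alpha partner ITGAL had 0.144, 0.111, 0.855 and 0.903 FPKM in the same order. The E-cadherin receptor subunit ITGAE had 1.01, 1.02, 0.696 and 0.984 FPKM. ITGA10, a collagen receptor of cartilage, had 0.708, 0.450, 0.519 and 0.487 FPKM, and ITGA3, a laminin receptor subunit, had 0.0451, 0.0732, 0.757 and 0.797 FPKM. Of the listed blood cell genes, LYZ, lysozyme, was abundant at 462, 504, 209 and 179 FPKM in treated HepG2, control HepG2, treated PLC/PRF/5 and control PLC/PRF/5, and PECAM1 of the endothelial list stood between 0.819 and 1.36 FPKM. ITGA10 had a ratio of 1.57 in treated over control HepG2 (counting interval 1.09 to 2.29), from 90 and 47 fragments. It passed the 0.5 FPKM minimum only through the treated libraries, so a higher treated level is partly built in by the rule. No direction is given in HepG2 for ITGAL (19 and 12 fragments) or ITGA3 (9 and 12 fragments), whose counting intervals include 1. None is given for ITGAE either, with 136 and 113 fragments and a ratio of 0.989 (counting interval 0.765 to 1.28).

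COL4A5 and COL4A6 were the type IV chains of both lines and are shown with their promoters because the pair shares its upstream region. COL4A6 had 1.98 FPKM in treated HepG2 and 2.83 FPKM in its control (374 and 440 fragments), a ratio of 0.698 (counting interval 0.607 to 0.804). In PLC/PRF/5 it had 1.35 FPKM in treated cells and 0.776 FPKM in the control (213 and 154 fragments), a ratio of 1.74 (counting interval 1.41 to 2.16). The gene thus lay on opposite sides of its control in the 2 lines. COL4A5 had 4.64 FPKM in treated HepG2 and 6.58 FPKM in its control, a ratio of 0.705 (counting interval 0.651 to 0.764). In PLC/PRF/5 it had 2.92 FPKM in treated cells and 2.61 FPKM in the control, a ratio of 1.12 whose interval of 0.998 to 1.25 includes 1. The windows below run from 250 bases before to 50 bases after the RefSeq start on GRCh38.p14, 5′ to 3′ on the strand of the gene, COL4A5 on the plus strand at chrX:108439588-108439887 and COL4A6 on the minus strand at chrX:108439409-108439708. Capitals mark the CCAAT box on either strand (CCAAT or ATTGG).
COL4A5: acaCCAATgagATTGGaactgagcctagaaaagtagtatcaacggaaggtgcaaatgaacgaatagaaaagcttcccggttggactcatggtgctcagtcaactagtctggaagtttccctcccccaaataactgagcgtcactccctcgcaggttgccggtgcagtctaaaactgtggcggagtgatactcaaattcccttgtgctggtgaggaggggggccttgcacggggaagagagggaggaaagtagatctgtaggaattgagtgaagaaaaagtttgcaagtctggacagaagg
COL4A6: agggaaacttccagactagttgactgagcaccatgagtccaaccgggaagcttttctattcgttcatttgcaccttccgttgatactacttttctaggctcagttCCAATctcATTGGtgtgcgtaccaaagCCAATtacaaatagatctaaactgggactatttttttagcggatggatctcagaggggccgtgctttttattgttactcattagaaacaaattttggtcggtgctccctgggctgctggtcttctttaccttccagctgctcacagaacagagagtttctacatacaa
The windows share 121 bases, so the first pair of boxes of COL4A5 is counted again in COL4A6, which holds 1 more box.

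COL27A1 and ITGA5 are shown as the leading collagen of HepG2 and the receptor subunit with the widest gap between lines. Their windows lie on the plus strand at chr9:114155287-114155586 and on the minus strand at chr12:54419217-54419516. Neither held a searched motif, so no letter is in capitals.
COL27A1: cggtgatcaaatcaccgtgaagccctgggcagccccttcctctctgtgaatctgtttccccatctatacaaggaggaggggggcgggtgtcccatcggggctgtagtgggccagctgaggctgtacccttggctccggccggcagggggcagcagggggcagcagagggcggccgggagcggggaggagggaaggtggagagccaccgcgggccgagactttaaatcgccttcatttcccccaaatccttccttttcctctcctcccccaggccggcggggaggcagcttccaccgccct
ITGA5: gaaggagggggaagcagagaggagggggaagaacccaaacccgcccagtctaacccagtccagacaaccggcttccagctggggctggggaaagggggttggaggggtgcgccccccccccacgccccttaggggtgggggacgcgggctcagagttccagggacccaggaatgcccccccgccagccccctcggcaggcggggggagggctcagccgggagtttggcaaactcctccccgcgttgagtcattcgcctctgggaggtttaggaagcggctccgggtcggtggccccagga
RefSeq gave a window for 27 of the 36 members. In addition to the CCAAT box (CCAAT), the searched letters, on both strands, were the sterol regulatory element TCACNCCAC bound by SREBP, the ER stress element (CCAAT and CCACG with 9 bases between them), the unfolded protein response element TGACGTGG, and the E-box CACGTG. Every ER stress element contains a CCAAT box. The sterol regulatory element was in 0 of 27 member windows and 1.15% of 27305 RefSeq promoters, the ER stress element in 0 and 0.0806%, and TGACGTGG in 0 and 0.795%. CCAAT was in 5 of 27 member windows (18.5%), those of COL11A1, COL4A5, COL4A6, COL5A3 and ITGA10, against 35.7% of all promoters. CACGTG was in 1 (3.7%), that of ITGA6, against 7.43%. These matches describe letters in a short window and are not binding sites.

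Set side by side, the lines gave opposite signs for several collagens and the same sign for the laminins. Both treatment ratios could be computed for 19 members with at least 1 FPKM in either library of each line. Of these, 9 were lower after treatment in both lines, 1 (ITGA2) was higher in both, 8 were lower in HepG2 and higher in PLC/PRF/5, and 1 (ITGB4) was higher in HepG2 and lower in PLC/PRF/5. The 8 collagens split into 7 with opposite signs and 1, COL6A1, lower in both, while all 4 laminins and 4 of 7 integrins were lower in both. ITGB4 in HepG2 and COL4A6 in PLC/PRF/5 passed 1 FPKM only through the treated library. Counting intervals include 1 for ITGB4 in HepG2 (0.832 to 1.41) and for COL6A1 in HepG2 (0.616 to 1.04) and PLC/PRF/5 (0.788 to 1.15). They also do for COL7A1 in HepG2 and for COL4A5, COL9A2 and COL18A1 in PLC/PRF/5, so these signs are not clear of counting error. Several of these signs rest on scaling: COL7A1, COL27A1, ITGA6 and ITGB1 in HepG2, and COL6A1 and LAMB1 in PLC/PRF/5, changed sign on the median-of-ratios scale, and COL4A5, COL9A2 and COL18A1 in PLC/PRF/5 and ITGA2 and ITGB4 in HepG2 changed sign on the TPM scale. No member differed by 1 or more on the log2 scale between the lines (HepG2 minus PLC/PRF/5), where the background was 0.809% of 9518 genes. The median difference was −0.21 over the members and −0.06 over the background. Below 0 were 15 of 19 members and 5901 of the 9518 background genes. How many of all genes gave opposite signs in the 2 lines was not counted.

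As a ratio of ratios that does not depend on a pseudocount, the HepG2 response over the PLC/PRF/5 response was 0.401 for COL4A6 (counting interval 0.313 to 0.514) and 0.489 for COL9A3 (0.426 to 0.561). It was 0.526 for COL27A1 (0.486 to 0.568), 0.631 for COL4A5 (0.551 to 0.724) and 0.652 for ITGA6 (0.596 to 0.714). For the abundant LAMB1 and LAMC1 it was 0.818 (0.778 to 0.861) and 0.865 (0.826 to 0.904), closer to 1. ITGB1 and ITGA1 were above 1, at 1.17 (1.12 to 1.21) and 1.19 (1.06 to 1.33). These intervals compare 4 libraries and cover counting error only.

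A shared treatment effect was fitted over all genes with limma on log2(FPKM + 1), blocking on cell line. It called 0 of 29 members fitted and 0 of 12838 genes at an adjusted p of 0.05, a background of 0%. The fit has 1 residual degree of freedom, and in simulated data of the same size it called 0% of 100 genes set to change 4-fold, so this count says little about the members. At an unadjusted p under 0.05 it held 9 of 29 members (31%) and 2488 genes (19.4%), but with median-of-ratios scaling 1 of 29 members and 10.8% of genes. The smallest adjusted p of limma among the members was 0.193, for LAMA5, with a shared log2 ratio of −0.33 (SE 0.0738) and a lower treated level in 2 of 2 lines.

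Genes that make, modify or bind the matrix were described from lists chosen with earlier results in view. Of 37 listed genes for collagen modification and secretion, 28 were measured, 0 were past 2-fold on the log2(FPKM + 1) scale, and 26 in HepG2 and 23 in PLC/PRF/5 were lower in treated than in control cells. Their median log2 ratios were −0.38 in HepG2 and −0.19 in PLC/PRF/5. Over all nuclear protein-coding genes tested, the medians were −0.18 in HepG2 and −0.13 in PLC/PRF/5, so most genes were lower in each line. At 2-fold, 0.651% of all genes were lower and 0.0701% higher in HepG2. In PLC/PRF/5 these shares were 0.349% and 0.113%. COLGALT2, a collagen galactosyltransferase, had 4.83 FPKM in treated HepG2 and 4.68 FPKM in its control, and 4.15 FPKM in treated PLC/PRF/5 and 1.67 FPKM in its control, a PLC/PRF/5 ratio of 2.49. The lysyl oxidase family member LOXL4, which cross-links collagen, had 1.76 against 2.79 FPKM in treated against control HepG2 and 26.9 against 39.3 FPKM in treated against control PLC/PRF/5. PCOLCE2, an enhancer of procollagen processing, had 3.20 against 4.99 FPKM in HepG2 and 1.67 against 2.49 FPKM in PLC/PRF/5, treated against control. The log2 ratio of (FPKM + 1) of COLGALT2 in PLC/PRF/5 was 0.95, just under 2-fold.

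All other basement membrane genes measured in HepG2 were lower in treated cells. Of 19 listed, 14 were measured in HepG2 and 13 in PLC/PRF/5, and 0 were past 2-fold on the log2(FPKM + 1) scale. Below 0 were 14 of 14 and 7 of 13. Their medians were −0.37 and −0.20, against −0.18 and −0.13 over all genes tested. HSPG2, the basement membrane proteoglycan perlecan, had 3.18 FPKM in treated HepG2 and 6.44 FPKM in its control, and 6.23 FPKM in treated PLC/PRF/5 and 8.47 FPKM in its control. Its HepG2 ratio of FPKM was 0.494, past 2-fold, while its log2 ratio of (FPKM + 1) was −0.83. NPNT, nephronectin, a ligand of integrin alpha 8, had 5.20 against 8.41 FPKM in treated against control HepG2 and 4.83 against 9.11 FPKM in treated against control PLC/PRF/5. SDC4, a syndecan of cell adhesions, had 34.1 against 58.7 FPKM in HepG2 and 63.1 against 97.8 FPKM in PLC/PRF/5, treated against control. These 3 genes were lower in the treated library of both lines.

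Of 22 listed other matrix ligands of integrins, 19 were in the table, and 11 were measured in HepG2 and 12 in PLC/PRF/5. CYR61, a secreted matricellular protein, had 2.47 FPKM in treated HepG2 and 6.71 FPKM in its control, at least 2-fold lower, and 18.9 FPKM in treated PLC/PRF/5 and 25.9 FPKM in its control. THBS1, thrombospondin, had 15.5 FPKM in treated HepG2 and 32.0 FPKM in its control, at least 2-fold lower, and 8.42 FPKM in treated PLC/PRF/5 and 8.02 FPKM in its control. SPP1, osteopontin, had 269 FPKM in treated HepG2 and 210 FPKM in its control, and 40.6 FPKM in treated PLC/PRF/5 and 16.8 FPKM in its control, at least 2-fold higher in PLC/PRF/5. The list thus had 2 genes at least 2-fold lower in HepG2 and 1 at least 2-fold higher in PLC/PRF/5. The shares over all genes tested were 0.651% and 0.113%. Its medians were −0.53 and −0.21, against −0.18 and −0.13 over all genes tested.

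The intracellular adhesion machinery had 38 listed and 30 measured genes, 0 past 2-fold on the log2(FPKM + 1) scale. In HepG2 29 of 30 were lower, and in PLC/PRF/5 23 of 30. Their medians were −0.26 and −0.22, against −0.18 and −0.13 over all genes tested. VCL, vinculin, which links integrin adhesions to actin, had 5.22 against 9.47 FPKM in treated against control HepG2 and 23.3 against 38.0 FPKM in treated against control PLC/PRF/5. FLNA, filamin A, had 37.0 against 58.5 FPKM in HepG2 and 44.7 against 56.0 FPKM in PLC/PRF/5, treated against control. Both genes were lower in the treated library of each line. Among 27 listed proteases and inhibitors, 13 were measured and 0 were past 2-fold on that scale, with 10 lower in HepG2 and 8 in PLC/PRF/5. Their medians of −0.20 and −0.10 were near those over all genes tested. TIMP3, a matrix-bound metalloproteinase inhibitor, had 16.8 against 23.0 FPKM in treated against control HepG2 and 3.35 against 1.93 FPKM in treated against control PLC/PRF/5. MMP1, an interstitial collagenase, was listed at 0 FPKM in treated HepG2 and 0.0607 FPKM in its control, and at 0.0598 FPKM in treated PLC/PRF/5 and 0.712 FPKM in its control, so it stayed under 1 FPKM throughout. TIMP3 thus lay on opposite sides of its control in the 2 lines.

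**Figure D4:**
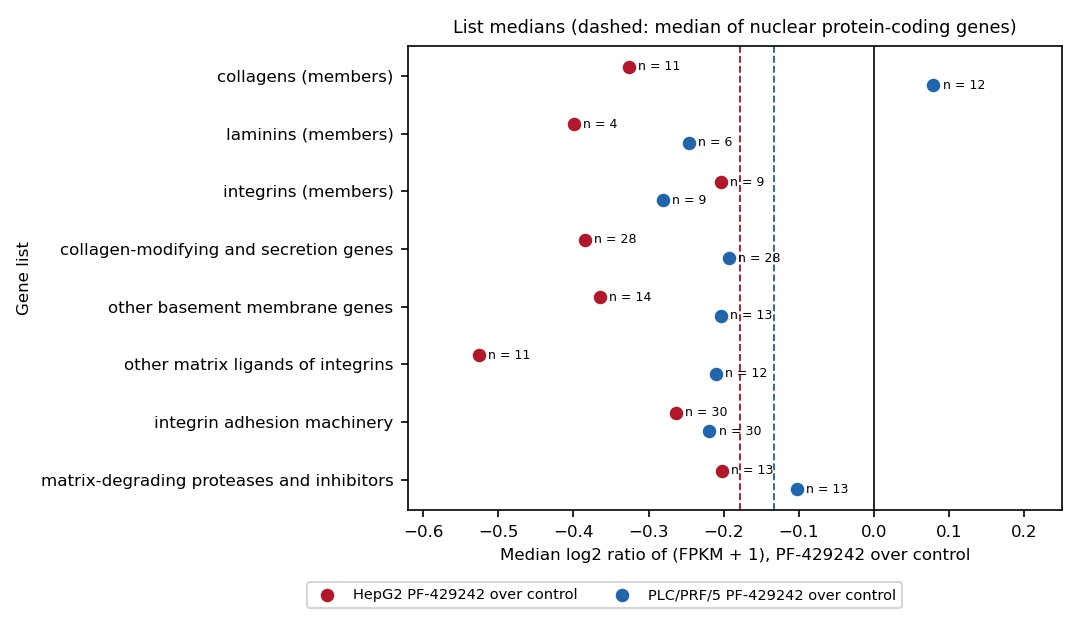
Median log2 ratio of (FPKM + 1), PF-429242 over control, for each family and each matrix list in HepG2 (red) and PLC/PRF/5 (blue), with the number of genes measured beside each point and dashed lines at the median over all nuclear protein-coding genes tested. Of the points drawn, the collagens of PLC/PRF/5, at 0.08, give the only median above 0.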

How the data were processed

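RNA of 4 samples was sequenced as 1 library per group, and the labels gave the groups. TopHat2 was the aligner and GRCh38 the build, per the submitters' processing notes. How fragments were counted, with which annotation and with or without strand, is not stated there. The authors deposited FPKM per gene for 32479 genes. All value columns were mapped to samples, with 0 left over.

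From these, whole fragments were recovered with GENCODE 29 exon lengths, within a tolerance of 0.001, for 24452 genes (75.3%), and from ratios between libraries for 7499 more, leaving 528 unsolved. All 36 members were solved. Library totals were 20350701 fragments in treated HepG2, 16722204 in its control, 16982560 in treated PLC/PRF/5 and 21387301 in its control. The 95% intervals of ratios are exact conditional binomial (Clopper-Pearson) intervals of the fragments in a pair of libraries, and a bound against 0 fragments was computed at 3 fragments in that library. Both cover counting error only.

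Log2 ratios were taken of FPKM + 1 as deposited, which understates the change of low genes. Nuclear protein-coding genes that reached 1 FPKM in either of the libraries compared were counted at 2-fold, with no p-value. The shared fit used limma 3.58.1 in R 4.3.3 (trend, cell line as block, Benjamini and Hochberg adjustment) on the 12838 genes that reached 1 FPKM in 2 or more libraries, and was tested on simulated data. Other steps used Python 3.11.15, pandas 2.3.3 and scipy 1.17.1. Alternatives were other pseudocounts, filters, thresholds and scalings. The members and lists were chosen with earlier results of these data known. Every member is named with its FPKM. Full values are given for members past 2-fold, for the leading gene of each family and for known partners. From each other list the text names the genes past 2-fold, and otherwise the 3 with the largest mean absolute log2 ratio. Some genes that this rule names are not reported here.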

Additional observations from a re-analysis of the deposited data

Results flagged for a closer look

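COL4A6, a type IV collagen chain, lay on opposite sides of its control in the 2 lines. It had 1.98 FPKM in treated HepG2 against 2.83 FPKM in its control, and 1.35 FPKM in treated PLC/PRF/5 against 0.776 FPKM in its control. The difference between the log2 ratios of (FPKM + 1), HepG2 minus PLC/PRF/5, was −0.77. The counting interval of the ratio excluded 1 in each line, below it in HepG2 and above it in PLC/PRF/5, and did so with median-of-ratios scaling as well, at 0.703 to 0.930 in HepG2 and 1.58 to 2.41 in PLC/PRF/5. With 1 library per group the difference was not tested. Of the 19 members with at least 1 FPKM in each line, 4 had opposite intervals clear of 1 on the deposited scale (COL4A6, COL9A3, COL27A1 and ITGA6). With median-of-ratios scaling 3 did (COL4A6, COL4A5 and COL18A1), so that COL4A6 alone had them on both. In PLC/PRF/5, COL4A6 passed the 1 FPKM filter only through its treated library, so its place among the 19 rests partly on its higher level there. How many of all genes had such opposite intervals was not counted. COL9A3 differed more between the lines, by −0.90, but its HepG2 interval with median-of-ratios scaling, 0.940 to 1.06, includes 1.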

How the results depend on the processing

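The count of members at least 2-fold lower in treated than in control HepG2, 1 on the deposited scale, was 0 with a pseudocount of 5, at a 4-fold threshold, with median-of-ratios scaling and with nuclear totals. In PLC/PRF/5, counts of 0 became 2 higher at a 1.5-fold threshold and 1 lower at that threshold or on the TPM scale. Between the controls, the 9 members higher in HepG2 were 4 with a pseudocount of 5 or a 4-fold threshold. The 10 lower were 3 with a pseudocount of 5 or a minimum of 5 FPKM, and 2 at 4-fold. Members differing by 1 or more between the lines went to 2, against 0, with a pseudocount of 0.1, an alternative chosen after seeing the data. The shared fit called 0 members under each alternative run, and its 9 members at an unadjusted p under 0.05 became 1 with median-of-ratios scaling and 0 without the cell line block. None of these counts reversed, while the tallies of collagens in PLC/PRF/5 and integrins in HepG2 above 0 moved across the middle with the scaling. Of 83 log2 ratios of members, 31 moved with median-of-ratios scaling, 54 on the TPM scale and 20 with a pseudocount of 0.1. The shared fit pairs treated and control cells within each line. No pairing by replicate number was possible because each group has 1 library, and for the same reason no replicate could be left out. Depth limits most those members with under 20 fragments in a library, such as COL2A1 in PLC/PRF/5 and ITGA5 in HepG2.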
